A study of Sus scrofa with 16 samples.

Results

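KLF2 and KLF4 are zinc finger transcription factors of the Krüppel-like family, and both are well known as factors that laminar blood flow switches on in endothelial cells. Each was represented by 1 probe set, a set of short DNA probes against a single transcript, among the 23935 probe sets that were compared in pig left ventricle. The members were taken as every probe set whose platform symbol was KLF2 or KLF4, which gave 2 genes of the 6765 that carried a single symbol. They had been chosen by their measured difference in signal between exercised and sedentary animals, so that training difference is described here without a test.

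The animals were young Yorkshire x Landrace pigs, aged 2 to 3 months, and tissue came from the left ventricle 4 to 5 weeks into the protocol. There were 8 exercise-trained and 8 sedentary animals, each group with 4 females and 4 neutered males, and 1 one-channel Affymetrix array per animal. No drug, diet or genetic change is named for either group, and the kind of exercise and the time from the last bout to sampling are not given in the sources used here. Because whole ventricular muscle was used, fewer cells of a type and less RNA per cell cannot be told apart in any value below.

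In endothelium, steady shear stress activates the kinases MAP3K3, MAP2K5 and MAPK7, which act through MEF2 factors on the KLF2 and KLF4 genes. KLF2 and KLF4 then raise anticoagulant and vasodilator genes such as THBD and NOS3 and hold down adhesion, cytokine and vasoconstrictor genes such as VCAM1 and EDN1. KLF4 is also an early response gene in many cells and represses the contractile genes of smooth muscle, and KLF2 keeps resting T cells quiescent.

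KLF4 was lower in the exercised hearts. On the log2 scale its signal ran from 7.61 to 8.26 with a median of 8.17 in the exercised animals, and from 8.28 to 9.09 with a median of 8.84 in the sedentary animals. Every exercised animal lay below every sedentary animal, although the highest exercised and the lowest sedentary value nearly touched. Group means were 8.09 ± 0.22 and 8.74 ± 0.27 (SD, n = 8 each), a difference of -0.64 log2 (SE 0.0994) averaged over the sexes, so that the sedentary signal was 1.56 times the exercised one.

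KLF2 was also lower in the exercised hearts, by less. Its signal ran from 4.63 to 4.86 with a median of 4.76 in exercised animals, and from 4.78 to 5.19 with a median of 5.08 in sedentary animals. The groups overlapped through a single animal, sedentary 1 at 4.78, which lay among the exercised values, while the other 7 sedentary animals lay above all exercised ones. Means were 4.76 ± 0.078 and 5.05 ± 0.13 (SD, n = 8 each), a difference of -0.29 log2 (SE 0.0617), with the sedentary signal 1.22 times the exercised one. Without sedentary 1 the difference was -0.33 log2.

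**Figure D1:**
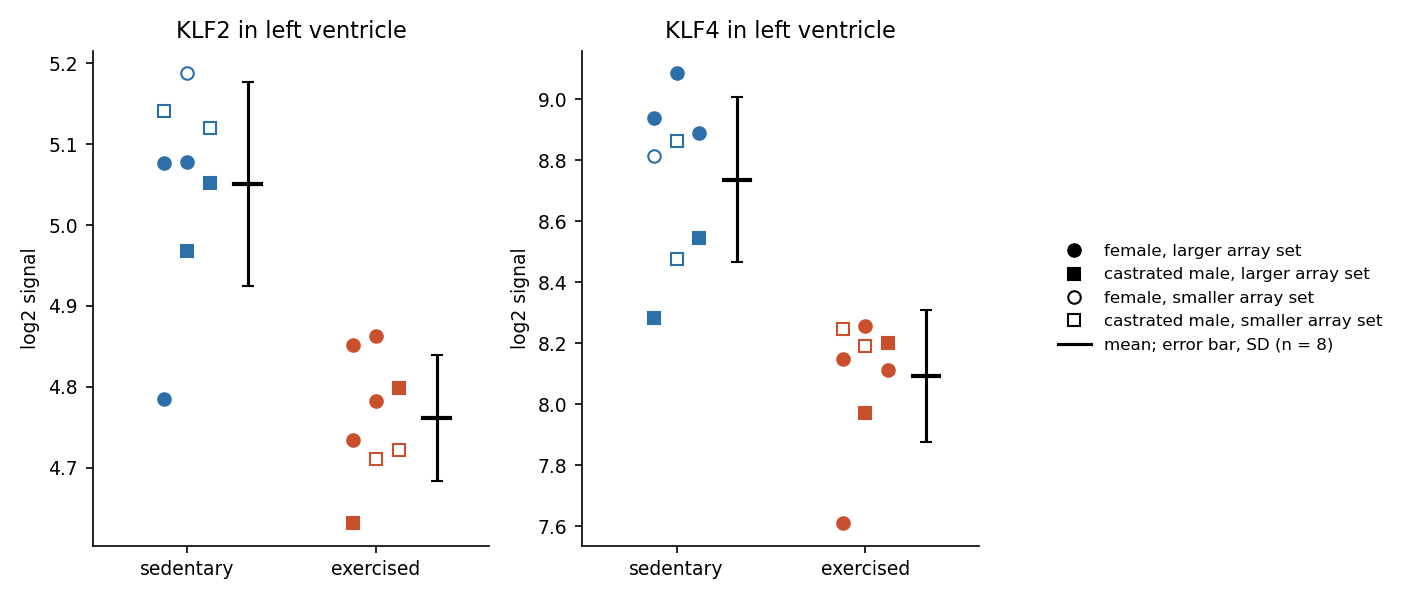
Log2 signal of KLF2 and KLF4 in each of the 16 pigs, by training group, with circles for females, squares for castrated males and open symbols for the smaller set of arrays; bars give mean and SD (n = 8). The KLF4 groups do not overlap, and for KLF2 only sedentary 1, at 4.78, lies within the exercised range.

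Of all probe sets, 1.68% had every exercised animal below every sedentary animal, as KLF4 did, and at an adjusted p of 0.05 6.88% passed the test for training downward and 6.48% upward. A difference at least as negative as that of KLF4 was found in 154 of the 23935 probe sets, and one at least as negative as that of KLF2 in 1790. These values belong to the contrast that chose the members and are given only to place them.

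The 2 probe sets lay at different positions on the scale of signal. KLF4 was at the 82.1 percentile of mean level and KLF2 at the 30.6 percentile. For comparison, 64 reporter probe sets, which are directed at no pig transcript, had a median level of 3.75 log2. Of these reporters, 63 lay below the mean level of KLF4 and 56 below that of KLF2. Their own exercised minus sedentary differences ran from -0.39 to 0.42 log2, with 2 at least as negative as that of KLF2 and 0 as negative as that of KLF4. Near KLF2, within 0.25 log2 of its mean level, 28.3% of 1766 probe sets passed for training in either direction, and near KLF4 3.99% of 1304 did, against 13.4% of all probe sets. The part that signal level has in the difference of KLF2 was not tested.

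The arrays fell into 2 sets by the level of the bacterial control transcripts added before labelling, which averaged 7.22 to 8.20 log2 on 11 arrays and 5.81 to 6.31 on 5. The labels name no such division. The smaller set held exercised 7 and 8 and sedentary 6, 7 and 8. KLF4 was lower in the exercised animals of both, by a plain difference of means of -0.70 log2 in the larger and -0.50 in the smaller set. For KLF2 those differences were -0.21 and -0.43 log2, and the gap between them was not tested. With the array set as a block the differences averaged over the sexes were -0.63 for KLF4 and -0.28 for KLF2.

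The next comparison asked whether the training difference was alike in females and castrated males. In females, KLF4 was 7.61, 8.11, 8.15 and 8.26 log2 in exercised animals and 8.81, 8.89, 8.94 and 9.09 in sedentary animals. In castrated males it was 7.97, 8.19, 8.20 and 8.25 in exercised animals and 8.28, 8.48, 8.55 and 8.87 in sedentary animals. The groups were apart in both sexes, and the gap was wider in females. The differences were -0.90 log2 in females and -0.39 in castrated males (SE 0.141 each, n = 4 per group), or 1.87 and 1.31 times on the linear scale. Sedentary females averaged 8.93 ± 0.12 and sedentary males 8.54 ± 0.24, while exercised females and males averaged 8.03 ± 0.29 and 8.15 ± 0.12 (SD, n = 4 each).

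For KLF2 the gap between groups was wider in castrated males. In females it was 4.73, 4.78, 4.85 and 4.86 log2 in exercised animals and 4.78, 5.08, 5.08 and 5.19 in sedentary animals, with overlap. In castrated males it was 4.63, 4.71, 4.72 and 4.80 in exercised animals and 4.97, 5.05, 5.12 and 5.14 in sedentary animals, without overlap. The differences were -0.22 log2 in females and -0.35 in castrated males (SE 0.0872 each).

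Neither contrast of the sexes passed. The difference between the female and the male training effect was -0.51 log2 for KLF4 (95% interval -0.93 to -0.087, limma adjusted p = 0.99996) and 0.13 for KLF2 (95% interval -0.13 to 0.39, adjusted p = 0.99996). Over all probe sets limma called 0 (0%) for this interaction, with 621 (2.59%) at an unadjusted p under 0.05. Without exercised 1, the lowest KLF4 value, the KLF4 interaction was -0.37, and without sedentary 1 that of KLF2 was 0.048. Castrated males differed from females, averaged over training, by -0.13 log2 for KLF4 (95% interval -0.35 to 0.077, adjusted p = 0.628) and by -0.027 for KLF2 (95% interval -0.16 to 0.10, adjusted p = 0.891), where limma called 22 probe sets (0.0919%), with 9.26% at an unadjusted p under 0.05. Females hold 1 of the 5 arrays of the smaller set, so the array set and the sex were partly aligned.

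**Figure D2:**
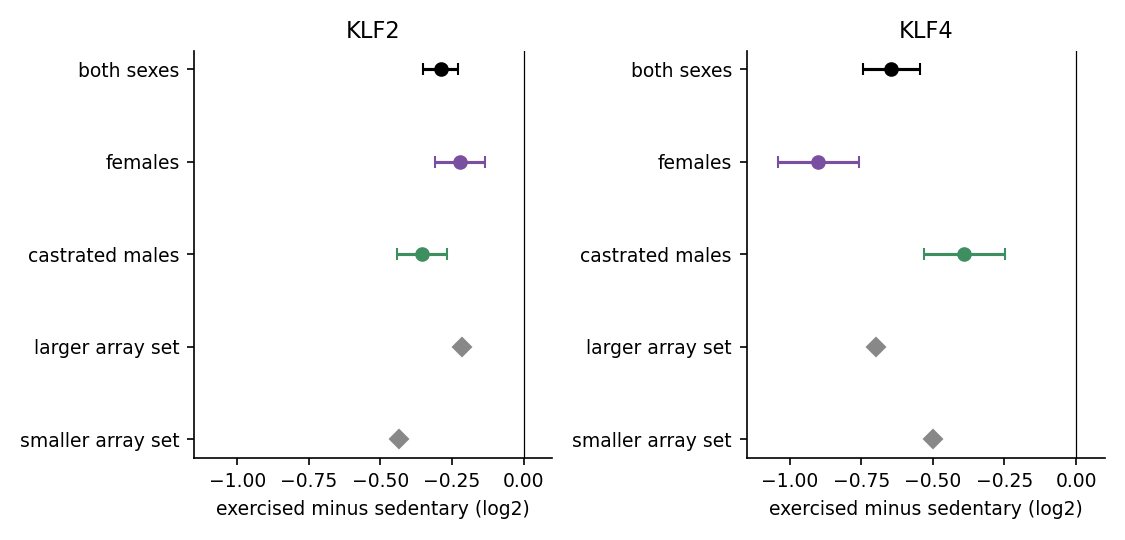
Exercised minus sedentary differences of KLF2 and KLF4 on the log2 scale: circles give the fitted difference over both sexes and within each sex with SE bars, and grey diamonds give the plain difference of means in each set of arrays. All lie below 0, from -0.21 to -0.43 for KLF2 and from -0.39 to -0.90 for KLF4.

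The variation from animal to animal within groups does not depend on the group means that chose the members. Across the 16 animals the deviations of KLF2 and KLF4 from the means of the 4 combinations of training and sex were not related (Pearson r = 0.0097, permutation p = 0.969; Spearman rho = -0.029, permutation p = 0.917; both two-sided). Leaving out the 2 animals farthest from the KLF2 median gave r = 0.14, and the 11 arrays of the larger set gave r = 0.0037. The smaller set, with 5 arrays, was too small for its own value.

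Each factor was set in the same way against its known targets THBD and NOS3 and against the endothelial adhesion gene PECAM1, making 7 relations in all. None passed after Benjamini-Hochberg adjustment by these permutation tests, and 1 had an unadjusted p under 0.05. The permutations made no allowance for the group means taken out beforehand, so their p-values run somewhat low, more so in the larger set alone. That was KLF4 with NOS3, at r = 0.54 (permutation p = 0.0322, adjusted 0.225) and rho = 0.49 (permutation p = 0.0565, adjusted 0.395), with r = 0.47 without the 2 extreme animals and 0.37 in the larger set. KLF2 with THBD had r = 0.34 (permutation p = 0.195, adjusted 0.456), which became -0.078 without the 2 extreme animals and was 0.33 in the larger set. KLF4 with THBD had r = 0.077 (permutation p = 0.779, adjusted 0.969), with -0.18 without the 2 extreme animals and -0.27 in the larger set. In that set rho was -0.61 (permutation p = 0.0506, adjusted 0.354). KLF2 with PECAM1 had r = -0.42 (permutation p = 0.107, adjusted 0.374), which became -0.13 without the 2 extreme animals and 0.33 in the larger set. For KLF2 with NOS3 r was 0.14 (permutation p = 0.597, adjusted 0.969), with 0.32 without the 2 extreme animals and -0.46 in the larger set. For KLF4 with PECAM1 it was -0.027 (permutation p = 0.920, adjusted 0.969), with 0.14 and -0.38.

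**Figure D3:**
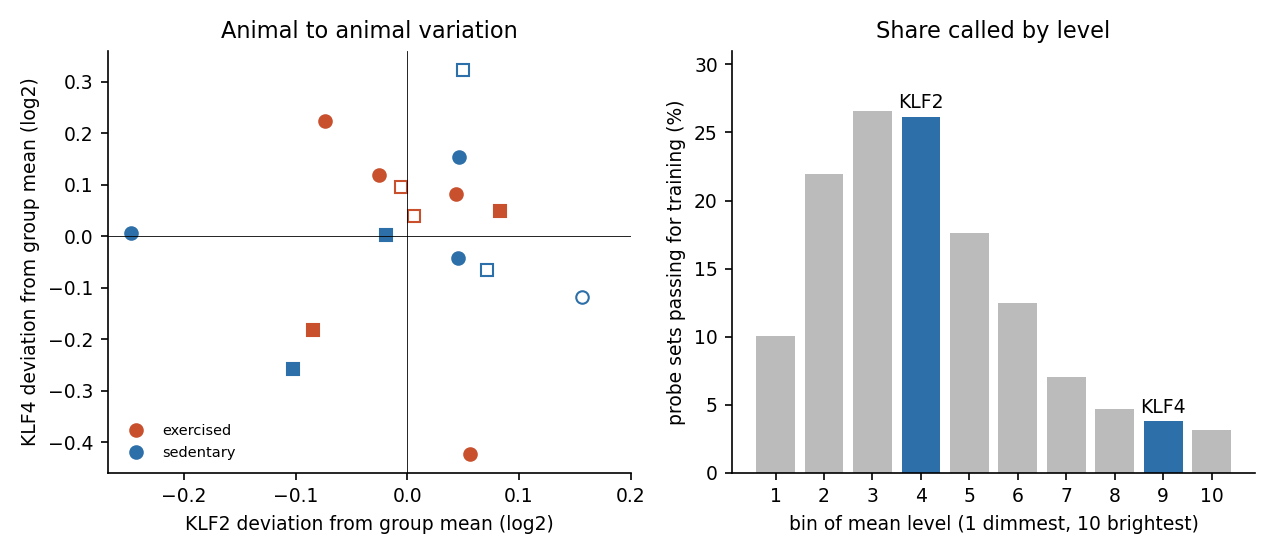
Left, deviation of KLF4 against that of KLF2 from the mean of each animal's combination of training and sex (log2, 16 animals, circles females, squares castrated males, open symbols the smaller set of arrays); r is 0.0097. Right, percent of probe sets passing for training in 10 bins of mean level of equal size, with 26.2% in bin 4, which holds KLF2, and 3.80% in bin 9, which holds KLF4.

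By the same measure the genes most like KLF2 over the 16 animals were MACF1, a cytoskeletal linker (r = 0.84), ZNF688, a zinc finger gene (0.82), RRAGC, a GTPase of amino acid sensing (0.81), VPS18, a vesicle sorting gene (0.81), and MAP4, a microtubule-binding protein gene (0.80). Those most like KLF4 were EIF4EBP2, a repressor of translation (0.92), RACK1, a ribosomal scaffold gene (0.79), LFNG, a modifier of Notch receptors (0.79), TMEM120A, a membrane protein gene (0.79), and CTNNB1, which codes for beta-catenin (0.77). For EIF4EBP2, LFNG, TMEM120A and CTNNB1 the probe set was not the brightest of its gene. These are the highest correlations among all named probe sets and are given as a description. The 10 genes had training differences from -0.23 to 0.099 log2, with adjusted p from 0.193 up by limma.

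The remaining results concern genes known to act with KLF2 and KLF4, each read from its brightest probe set. Of all 6765 genes, 10% passed for training, 5.11% upward and 4.91% downward, and their median difference was 0.013 log2. Of all 23935 probe sets, 6474 had an unadjusted limma p under 0.05 for training, to be read beside the counts below. The lists are described by counts and medians only. Differences given below for both the larger and the smaller set of arrays are plain differences of means, not averaged over the sexes. Training differences given for the larger set alone come from the fit and are averaged over the sexes.

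Other Krüppel-like and SP factors bind the same kind of GC-rich and CACCC sites. Of 24 listed, 8 were measured, and 0 passed by limma, with 1 at an unadjusted p under 0.05 and a median of 0.0024 log2. KLF15, a cardiac metabolic regulator that glucocorticoids induce, had the most negative value at -0.34 (SE 0.197, adjusted p = 0.292). KLF9, KLF10, KLF11 and KLF13 had values of 0.10, 0.18, 0.097 and -0.038. KLF1, a red cell factor, was at -0.11 and SP1, a ubiquitous factor, at 0.042. SP7, a bone factor, was at -0.18 (adjusted p = 0.117) on its brightest probe set, and its second one, dimmer at 4.79 log2, fell by 0.44 (adjusted p = 0.00246). That second probe set lay in bin 3 of mean level, where 26.6% of all probe sets passed for training. With the KLF9 probe sets averaged, its difference was -0.0054.

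Of 29 genes listed upstream of KLF2 and KLF4, 9 were measured and 0 passed by limma, with 0 at an unadjusted p under 0.05 and a median of -0.027 log2. MAP3K3, the first kinase of the flow cascade, was at -0.027, and the transcription factor genes MEF2A and MEF2D were at 0.062 and 0.050. HDAC5, a deacetylase that holds MEF2 factors inactive, was at 0.047. CCM2 and PDCD10, of a complex that restrains MAP3K3, were at -0.13 and -0.054. PRKAA1 and PRKAA2, the catalytic subunits of the energy sensor AMPK, were at 0.24 and -0.14 (adjusted p = 0.466 and 0.188). PRKAA1 was at 0.050 without sedentary 8, and its second probe set was at -0.062. The other upstream kinases, MAP2K5 and MAPK7, were not among the named probe sets.

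Among 13 measured genes that KLF2 or KLF4 raises in endothelium, 1 fell, 0 rose and 12 did not pass, with a median of -0.066 log2; 7.69% had fallen, against 4.91% of all genes. The mean level of the list differed by -0.18 log2 in the larger and 0.051 in the smaller set of arrays. THBD, the receptor that turns thrombin into an anticoagulant, was the one that fell. It ran from 6.79 to 7.63 log2 with a median of 7.39 in exercised animals and from 7.55 to 8.73 with a median of 8.18 in sedentary animals, overlapping at the edge. The difference was -0.82 (SE 0.170, n = 8, adjusted p = 0.00523), with all 8 exercised animals below the sedentary mean. The plain difference of means was -0.80 in the larger and -0.73 in the smaller set of arrays, and the fit of the larger set alone gave -0.84.

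NOS3, the endothelial nitric oxide synthase, did not pass. It ran from 6.81 to 7.74 log2 with a median of 7.02 in exercised animals and from 6.81 to 7.95 with a median of 7.31 in sedentary animals, which overlapped over nearly their whole range. The difference was -0.13 (SE 0.157, n = 8, adjusted p = 0.654), with plain differences of means of -0.12 in the larger and 0.050 in the smaller set of arrays. The fitted difference was -0.018 without sedentary 7. S1PR1, a receptor that keeps endothelium quiet, was at -0.18 (adjusted p = 0.190), the heme-degrading enzyme gene HMOX1 at -0.34 (adjusted p = 0.598) and the antioxidant enzyme genes TXNRD1 and NQO1 at 0.16 and 0.15 (adjusted p = 0.252 and 0.337). AQP1, a water channel, and CAV1, the caveolar coat protein, were at -0.069 and -0.066.

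Among 13 measured genes that KLF2 or KLF4 holds down in endothelium, 1 rose, 1 fell and 11 did not pass, which is 15.4% against 10%, with a median of 0.018 log2. EDN1, the precursor of the vasoconstrictor endothelin, fell. It ran from 5.25 to 5.74 log2 with a median of 5.49 in exercised animals and from 5.71 to 6.89 with a median of 5.85 in sedentary animals, so that the groups met at the edge. The difference was -0.58 (SE 0.150, n = 8, adjusted p = 0.0180), with plain differences of means of -0.67 in the larger and -0.37 in the smaller set of arrays. The probe set of EDN1, at 5.78 log2, lay in bin 5 of mean level, where 17.6% of all probe sets passed for training.

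F3, which codes for tissue factor, the starter of coagulation, rose. It ran from 6.77 to 8.76 log2 with a median of 8.16 in exercised animals and from 6.01 to 7.98 with a median of 6.92 in sedentary animals, with wide overlap. The difference was 1.08 (SE 0.328, n = 8, adjusted p = 0.0398), and 7 of 8 exercised animals lay above the sedentary mean. The call was lost in the larger set of arrays alone (0.94, adjusted p = 0.134) and when any one of exercised 1, 2, 5, 6, 7 or 8 or sedentary 1, 2, 3, 4 or 7 was left out (0.93 to 1.10, adjusted p up to 0.0799). The growth factor gene BMP4 was at -0.20 and the angiotensin-converting enzyme gene ACE at 0.15 (adjusted p = 0.208 and 0.212). In the larger set of arrays alone BMP4 passed at -0.35 (adjusted p = 0.0482), as did the cytokine gene IL6 at -0.42 (adjusted p = 0.0462), which over all arrays was at -0.044. IL6 was dim at 4.44 log2, in bin 3 of mean level, where 26.6% of all probe sets passed for training over all arrays. The adhesion genes VCAM1, ICAM1 and SELE were at -0.095, -0.30 and 0.0053, with wide SEs of 0.479, 0.590 and 0.901. In the larger set of arrays alone they were at -0.84, -1.09 and -1.21 without passing (adjusted p = 0.296, 0.279 and 0.425). The mean level of the list differed by -0.40 log2 in the larger and 1.02 in the smaller set of arrays.

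**Figure D4:**
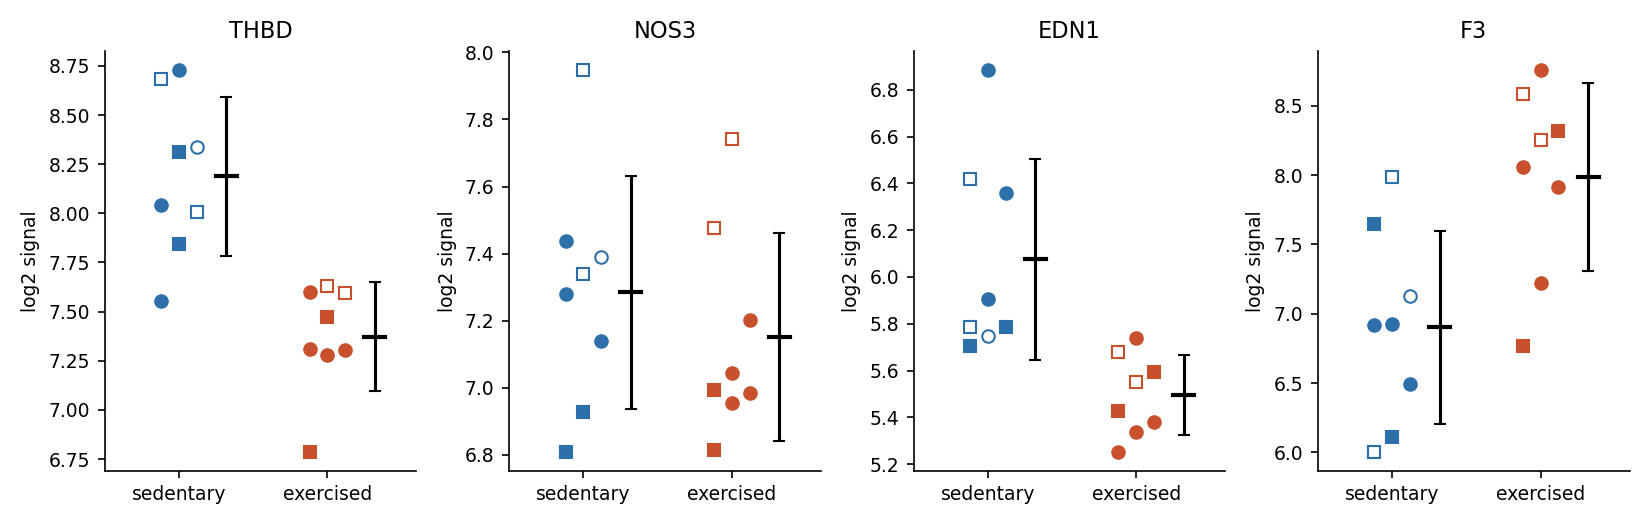
Log2 signal of THBD, NOS3, EDN1 and F3 in each pig by training group, with circles for females, squares for castrated males, open symbols for the smaller set of arrays, and mean with SD (n = 8). THBD and EDN1 are lower in exercised animals, F3 is higher with wide overlap, and the NOS3 groups overlap almost fully.

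Immediate early genes, which share with KLF4 a rapid response to stimuli, were listed without KLF2 and KLF4. The downward shift of such genes was among the earlier results known when the list was made, so it is no independent evidence. Of 25 measured, 3 fell, 0 rose and 22 did not pass, 12% against 4.91% of all genes, with a median of -0.36 log2 and 19 values below 0. NR4A3, an orphan nuclear receptor gene, fell by 2.01, DUSP1, whose product dephosphorylates MAP kinases, by 0.66 and CEBPD, a stress-induced transcription factor gene, by 0.64 (adjusted p = 0.00162, 0.0268 and 0.0453). CYR61, a matricellular gene, was at -0.91 (adjusted p = 0.0561), and FOS, EGR1 and ATF3 were at -0.95, -0.89 and -1.63 without passing.

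The mean level of this list was -0.63 log2 in the exercised relative to the sedentary animals of the larger set of arrays and 0.087 in the smaller set. Single members differed in this: NR4A3 was at -1.98 and -1.88 in the larger and smaller sets and DUSP1 at -0.78 and -0.18, while CEBPD was at -0.88 and 0.097. The other probe sets of CEBPD did not pass (-0.31 and -0.30, adjusted p = 0.442 and 0.0706). In the larger set alone EGR1 and ATF3 passed too, at -1.50 and -2.41 (adjusted p = 0.0355 and 0.0360). The number called ran from 1 to 7 when 1 animal was left out. It was 1 without exercised 1, 3 or 5 or sedentary 2, 3 or 7, was 5 without sedentary 5 and 6 without sedentary 4, and reached 7 without exercised 7. DUSP1 was lost without exercised 1, 2, 3 or 5 or sedentary 2, 3 or 7. CEBPD was lost without any one of exercised 1 to 6 or sedentary 1, 2, 3, 4, 6, 7 or 8.

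**Figure D5:**
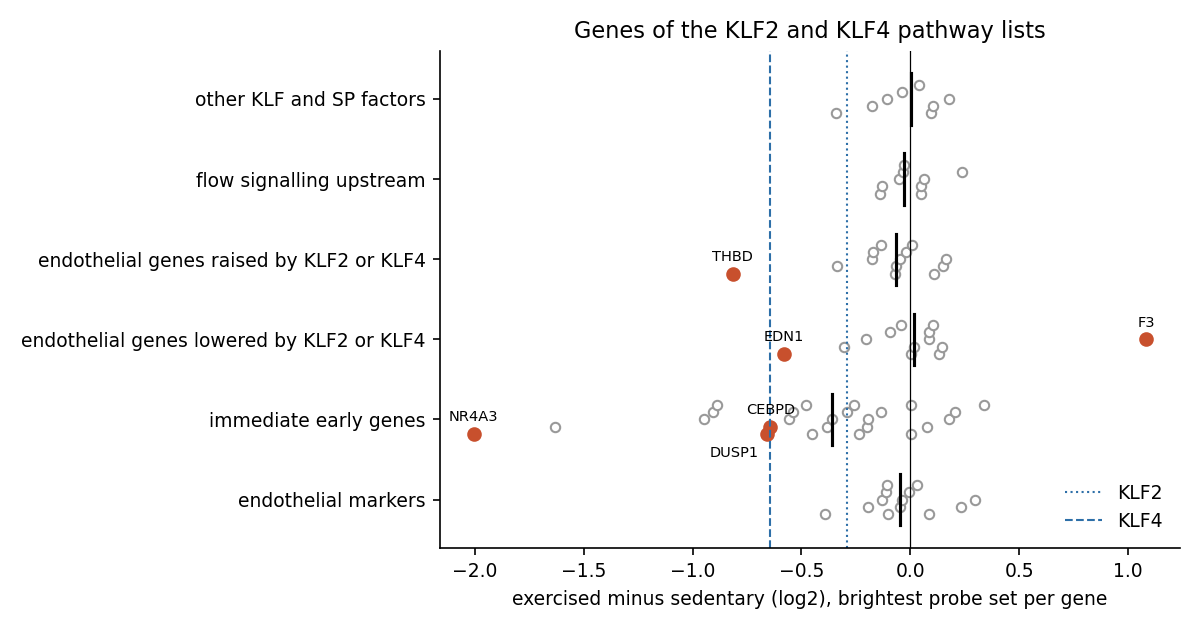
Exercised minus sedentary difference (log2) of each measured gene in 6 lists, with filled red symbols for genes past an adjusted p of 0.05, black bars for list medians, and dotted and dashed lines for KLF2 (-0.29) and KLF4 (-0.64). The labelled calls are THBD, EDN1, F3, NR4A3, DUSP1 and CEBPD.

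Markers of the cell types that could carry KLF2 or KLF4 were read beside them. Of 13 measured endothelial markers 0 passed by limma, with 1 at an unadjusted p under 0.05 and a median of -0.046 log2. Their mean level ran from 8.05 to 8.53 in exercised and from 8.24 to 8.52 in sedentary animals, with a difference of -0.094 in the larger and 0.13 in the smaller set of arrays. PECAM1 was at -0.19 (adjusted p = 0.287), FLT1, a VEGF receptor, at -0.39 (adjusted p = 0.0609), and the junction gene CLDN5 and the secreted factor gene EGFL7 at 0.30 and 0.23. In the fit of the larger set of arrays alone PECAM1 passed at -0.40 (adjusted p = 0.0133) and EGFL7 at 0.40 (adjusted p = 0.0176). CLDN5 was at -0.0401 in that fit, with a plain difference of means of 0.098 in that set. Without sedentary 8 PECAM1 passed at -0.29 (adjusted p = 0.0249), and FLT1 passed without exercised 2 or 8 or sedentary 6. The second PECAM1 probe set, at 9.93 log2, did not pass over all arrays (-0.097, adjusted p = 0.673). Neither did the other FLT1 probe sets (-0.026 and -0.12, adjusted p = 0.879 and 0.600). KDR, the main VEGF receptor, was the dimmest of the list at 5.32.

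Of 8 smooth muscle markers 0 passed by limma and 0 had an unadjusted p under 0.05, with a median of -0.0019 log2. Their mean level ran from 9.87 to 10.23 in exercised and from 9.83 to 10.42 in sedentary animals. The contractile genes CNN1 and TAGLN were at -0.43 and -0.20, their coactivator gene MYOCD at -0.24 and the mural cell receptor gene PDGFRB at 0.16 (adjusted p from 0.211 to 0.521). Without sedentary 7 CNN1 was at -0.22 and TAGLN at -0.079, and without sedentary 8 MYOCD was at -0.091.

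Of 9 lymphocyte markers, read because T cells carry KLF2, 2 rose, 1 fell and 6 did not pass. The share called was 33.3%, against 10% of all genes. The 3 called lay in bins 2 to 4 of mean level, where 21.9% to 26.6% of all probe sets passed for training. The median was 0.18 log2. The T cell receptor subunit gene CD3G rose by 0.56 (adjusted p = 0.0155), the B cell gene CD79B rose by 0.26 (adjusted p = 0.0126) and the cytokine receptor gene IL7R fell by 0.23 (adjusted p = 0.0188). In the larger set of arrays alone the 3 did not pass, at 0.37, 0.26 and -0.18 (adjusted p from 0.0796 to 0.137). CD4 was at -0.37 (adjusted p = 0.0618), passed in the larger set at -0.40 (adjusted p = 0.0347), and its second probe set moved the opposite way at 0.34 (adjusted p = 0.00392). That probe set, at 3.87 log2, lay in bin 2, where 21.9% of all probe sets passed for training. The list was dim, with a mean level from 5.38 to 5.81 in exercised and from 4.97 to 5.59 in sedentary animals. The part of lymphocytes in the KLF2 difference was not tested.

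Heart muscle genes were at the top of the scale on every array. The mean level of 13 cardiomyocyte markers ran from 13.69 to 13.93 log2 in exercised and from 13.62 to 13.80 in sedentary animals, the dimmest being RYR2 at 11.56. Of these 0 passed by limma, with 1 at an unadjusted p under 0.05. That was RYR2, at 0.36 (adjusted p = 0.0920), and at 0.42 (adjusted p = 0.0507) in the larger set of arrays. Of its 2 other probe sets, the dimmer one, at 4.52 log2, passed at 0.41 (adjusted p = 0.0132). It lay in bin 3 of mean level, where 26.6% of all probe sets passed for training. The other was at -0.042 (adjusted p = 0.881).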

How the data were processed

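Total RNA from frozen left ventricle was labelled with biotin and run on one-channel Affymetrix porcine arrays, per the labels' protocols. The authors deposited log2 signals per probe set. The unit was read from the values, 2.87 to 14.86, and the summarisation and normalization are not given in the sources used here. Their distributions matched between arrays (medians 6.236 to 6.242), so they were used as deposited. Correlation of an array with the average of the rest was 0.988 to 0.994, and the number of arrays limits the precision.

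Affymetrix control and reporter probe sets (188) were left out of the tests. Gene symbols are those of the platform table and may be outdated. The model had 4 means, of females and males in either group, and was fitted with lmFit and eBayes of limma 3.58.1 (R 4.3.3; 12 residual and 3.50 prior degrees of freedom), with two-sided tests, Benjamini-Hochberg adjustment over 23935 probe sets and a threshold of 0.05. All adjusted p-values of genes are limma's. Permutation tests drew 100000 orders of the deviations, with no allowance for the means taken out, so their p-values run somewhat low. The fit was tested on simulated data.

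The members, the 12 gene lists and the array sets were chosen with earlier results of these data known. Genes named are, per list, those passing on the brightest probe set, or the smallest p up to 4, with THBD, NOS3 and PECAM1 always, and the 5 genes most like each member; others were added after their values were seen. The settings varied were median centring, quantile normalization, a filter at the 40th percentile of level (5.57 log2), trended and robust eBayes, array weights, replicate number or array set as a block, the larger set of arrays alone, no sex term, the mean of a gene's probe sets, and leaving out each animal.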

Additional observations from a re-analysis of the deposited data

Results flagged for a closer look

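KLF4 in exercised 1 stood apart from its group at 7.61 log2, with the next exercised animal at 7.97. Without it the KLF4 training difference was -0.57 log2. THBD in exercised 5 was low at 6.79, next to 7.28. The remaining values that stood apart from the other 7 of their group were KLF1 in exercised 8 at 4.84, S1PR1 in exercised 6 at 10.70, CD79B in exercised 1 at 4.38, MEF2A in sedentary 8 at 10.24, NQO1 in sedentary 3 at 8.24, TNNI3, a troponin gene, in sedentary 3 at 14.52, and CNN1 in sedentary 7 at 9.83 log2. These are 9 of 102 groups looked at, where chance marks about 1 in 20.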

How the results depend on the processing

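The training differences of KLF2 and KLF4 kept their sign in all settings run, from -0.33 to -0.23 log2 and from -0.69 to -0.57, and KLF2 has no value with the filter at the 40th percentile because it lies below it. Their interaction and sex contrasts did not pass in any setting. THBD, EDN1 and NR4A3 kept their calls in every setting. With the replicate block the correlation of KLF2 and KLF4 was -0.40, against 0.0097 without it; it was -0.000199 with median centring, -0.11 with the array set as a block, -0.14 with deviations from the training means only, and -0.15 to 0.18 with 1 animal left out, and passed in none of these. Genes past the threshold became 1 among other KLF and SP factors with the probe sets of a gene averaged. With the filter they became 1 among genes held down and 1 among immediate early genes, and in the larger set of arrays 3 and 5, where F3 was lost and BMP4 and IL6 were gained among genes held down. Endothelial markers had 1 with array weights, with the replicate block, with the array set as a block and with probe sets averaged, and 2 in the larger set. Over all 6765 genes, 346 rose and 332 fell in the main fit. These counts were 420 and 407 with array weights, 389 and 406 with the replicate block, and 515 and 485 with the array set as a block. They were 347 and 361 with probe sets averaged, 305 and 265 in the larger set, and 92 and 107 of 5451 genes with the filter. With 1 animal left out the counts were 1 to 2 for genes held down, 1 to 7 for immediate early genes and 0 to 1 for endothelial markers. Over all genes 261 to 347 then rose and 262 to 320 fell. Over all probe sets 3197 passed for training, and 631 with the filter; for the sex contrast 22 passed, 40 with array weights, 13 with the replicate block and 83 without sedentary 8. The sign turned for KLF9 with probe sets averaged (-0.0054) and for CLDN5 in the fit of the larger set (-0.0401). The plain difference of means of CLDN5 in that set was 0.098. Neither gene passed, and the cause of these changes was not tested. Same-numbered animals deviated together at r from -0.033 to 0.39, above 0.1 in 5 of 8 pairs. The main model did not take the numbers as pairs, and these values do not decide whether it should have. In pairs 7 and 8 both animals lay in the smaller set of arrays, so number and array set were partly aligned. With the replicate block 3528 probe sets passed for training.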

Other observations

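Fibroblast markers had 0 of 8 past the threshold by limma, with 3 at an unadjusted p under 0.05 and a median of -0.17 log2. Such a p for training was common, in 6474 of all 23935 probe sets. Their mean level differed by -0.35 in the larger and 0.23 in the smaller set of arrays. COL3A1, a fibrillar collagen, was at -0.25, the matrix gene FBLN1 at -0.33, the fibroblast transcription factor gene TCF21 at -0.32 and the proteoglycan gene DCN at -0.14 (adjusted p from 0.0811 to 0.326). Among 8 macrophage markers 1 rose, 12.5% against 5.11% of all genes upward, with a median of 0.066 log2. This was the integrin gene ITGAM, by 0.54 (adjusted p = 0.00399), with all 8 exercised animals above the sedentary mean. Its probe set, at 4.86 log2, lay in bin 3 of mean level, where 26.6% of all probe sets passed for training. The second ITGAM probe set was at 0.049 (adjusted p = 0.800). AIF1, a macrophage actin-binding protein gene, was at 0.43 (adjusted p = 0.0508) and TYROBP at 0.18 (adjusted p = 0.421). CD14 was at -0.29 (adjusted p = 0.141), with its second probe set at 0.067 (adjusted p = 0.703), and CD163 at -0.24 (adjusted p = 0.611). These were the 2 values of the list below 0, against 6 above. Among 5 red cell and platelet markers 1 rose, 20% against 5.11% of all genes upward. This was the platelet chemokine gene PPBP, by 0.25 (adjusted p = 0.0391), at a level of 3.76 log2, near the reporter median. That level lay in bin 2, where 21.9% of all probe sets passed for training. The PPBP call was lost without any one of exercised 4, 6, 7 or 8 or sedentary 3, 4, 7 or 8 (0.21 to 0.24) and in the larger set of arrays alone (0.15, adjusted p = 0.291). The globin gene HBB was at 0.13 (adjusted p = 0.289).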
